A study of Homo sapiens with 6 samples.

Results

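The genes described here are 40 transcription factors, stem cell markers and glial or neuronal markers of the neural lineage. They were chosen by name as a list of such genes and by no value cutoff, with earlier results of these data known. Of the 40, 37 had a probe set of their own, out of 22411 genes with one, 2 (FUT4 and TUBB3) lay on probe sets shared with another gene, and the annotation used here listed no probe set for NEUROD1. Total RNA was hybridised to 6 one-colour Affymetrix arrays, 3 of U87 MG cells with stable GUCY1B3 overexpression and 3 of U87 MG control cells. U87 MG is an established human glioblastoma line, and GUCY1B3 (now GUCY1B1) encodes the beta subunit of soluble guanylate cyclase, the nitric oxide receptor that makes cGMP. Per the labels, the gene was carried on the plasmid pCDNA3.1D/V5-His-TOPO, both groups grew in DMEM with serum, and no treatment was given. The labels name no empty-vector cells, do not say whether the stable cells were a pool or a clone, and do not say whether the arrays of a group came from separate cultures, so the p-values cover only the array-to-array spread, which may be purely technical.

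Neural stem cells and the stem-like cells of glioblastoma are maintained by transcription factors of the SOX, POU, SALL and basic helix-loop-helix (bHLH) families. SOX2, OLIG2, POU3F2 and SALL2 are known as a set of factors that can return differentiated glioblastoma cells to a stem-like state. Notch signalling keeps such cells undifferentiated through the HES and HEY repressors, and the intermediate filaments nestin and vimentin, the glycoproteins prominin-1 and CD44 and the adhesion molecule L1CAM serve as markers of these cells.

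GUCY1B1 itself read 8.10, 8.18 and 8.40 on the overexpression arrays, against 7.45, 7.70 and 7.49 on the control arrays, in log2 units (limma, adjusted p = 0.00431). Control array 3 stood apart from the other controls. Across the 15823 genes tested it correlated at 0.989 with control array 1 and at 0.987 with control array 2, while those correlated at 0.995 with each other. Its correlations with the 3 overexpression arrays were 0.987, 0.989 and 0.987, as high as with its own group. Values without control array 3 are given where leaving it out changed a call, and for some other genes in which it lay far from the other controls.

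Of the 37 genes, 28 lay above the filter on dim genes and were tested, and each of the 28 lay above the median of all features on all 6 arrays. L1CAM, a neural adhesion molecule, and NES, which encodes the stem cell filament nestin, were higher in GUCY1B3 overexpression cells. UCHL1, a neuronal ubiquitin hydrolase, and HEY1, a Notch target repressor, were lower. The other 24 did not pass the threshold, among them all 13 tested SOX, neural bHLH, PAX6, POU3 and NFI factors. Calls used limma with Benjamini-Hochberg adjustment over all 15823 genes and a threshold of 0.05. The 4 calls were 14.3% of the tested listed genes, beside 10.9% of all tested genes. In each direction there were 2, beside 6.38% of all tested genes higher and 4.53% lower. The share of listed genes called is thus close to the background, and the median difference was 0.05 beside 0.02 over all tested genes. Here and below, a lower RNA level cannot be told apart from fewer cells that carry the transcript.

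**Figure D1:**
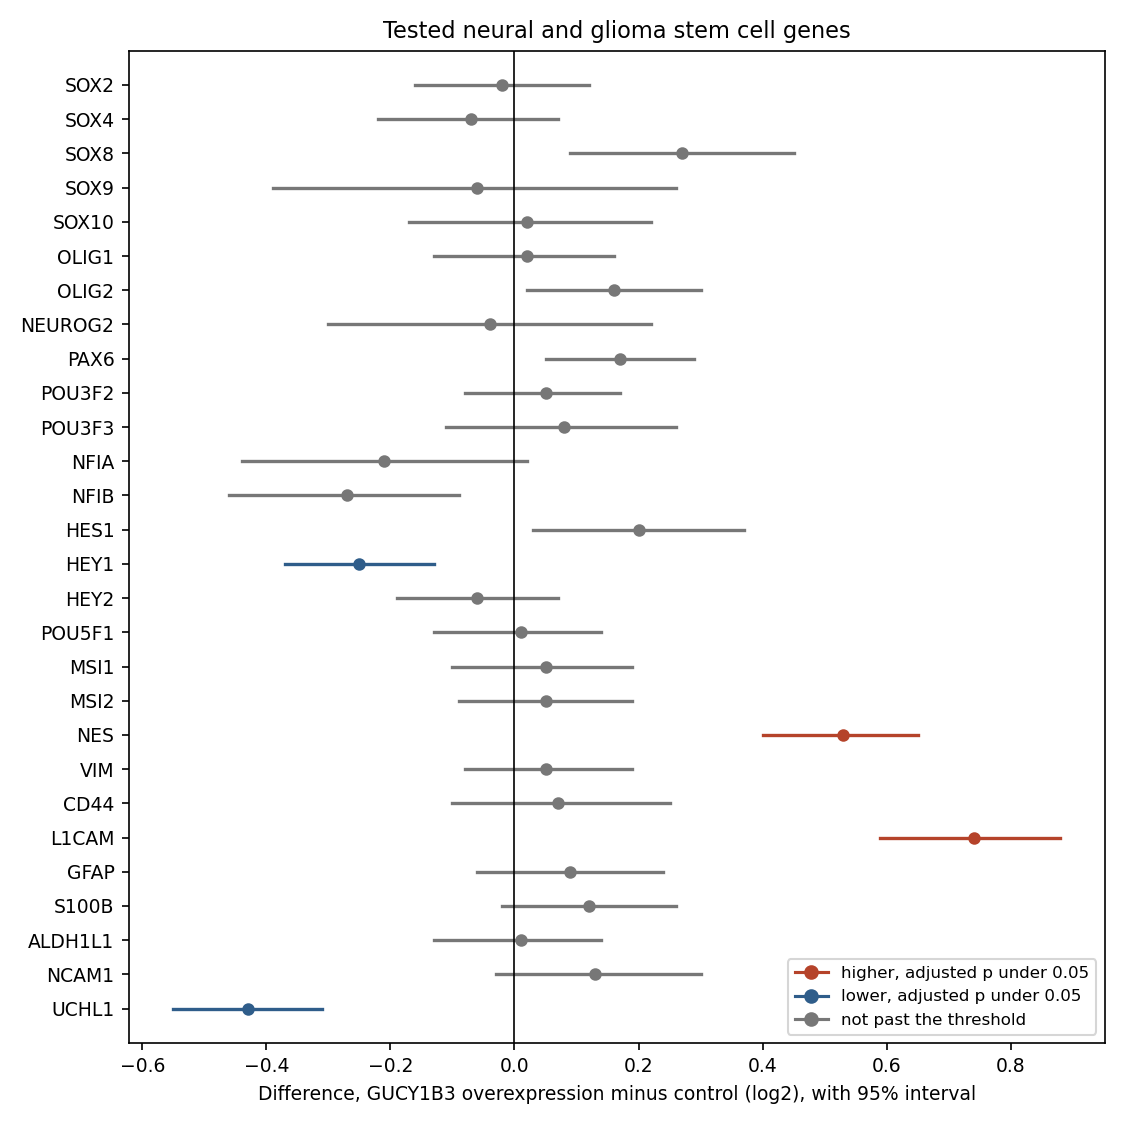
Difference in log2 RMA value between GUCY1B3 overexpression and control arrays for the 28 tested genes, as points with 95% intervals from the limma fit (3 arrays per group). L1CAM and NES lie to the right of 0 and UCHL1 and HEY1 to the left with an adjusted p under 0.05, and the grey genes did not pass.

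L1CAM is a cell surface molecule of the immunoglobulin family that guides axons and is carried by many glioma stem-like cells. It read 7.00, 6.95 and 7.13 on the overexpression arrays, against 6.34, 6.28 and 6.25 on the control arrays. The lowest overexpression array lay well above the highest control array. It averaged 7.03 ± 0.09 in overexpression and 6.29 ± 0.04 in control (SD, n = 3 each), so the groups differed by 0.74 ± 0.063 (SE) or 1.67-fold (limma, adjusted p = 0.000521). L1CAM passed under each of the 14 alternative settings, with differences between 0.69 and 0.78 and adjusted p between 0.000145 and 0.0295. L1CAM lies on the X chromosome, and of its 20 nearest tested genes 0 were higher and 1 was lower, with a median difference of 0.05. Among all tested genes 6.38% were higher and 4.53% lower, with a median of 0.02.

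NES read 7.15, 7.12 and 7.20 on the overexpression arrays, against 6.68, 6.63 and 6.58 on the control arrays. The groups did not overlap, and the arrays within a group lay close together. It averaged 7.16 ± 0.04 in overexpression and 6.63 ± 0.05 in control (SD, n = 3 each), so the groups differed by 0.53 ± 0.054 (SE) or 1.44-fold (limma, adjusted p = 0.00125). NES also passed under each of the 14 alternative settings, with differences between 0.50 and 0.55 and adjusted p between 0.000367 and 0.0266. On chromosome 1, 0 of its 20 nearest tested genes were called in either direction, beside 10.9% of all tested genes.

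UCHL1 is an abundant neuronal deubiquitinating enzyme, also known as PGP9.5, and is used as a marker of neurons. It read 8.64, 8.64 and 8.57 on the overexpression arrays, against 9.02, 9.10 and 9.03 on the control arrays. All overexpression arrays lay below all control arrays. It averaged 8.62 ± 0.04 in overexpression and 9.05 ± 0.04 in control (SD, n = 3 each), so the groups differed by -0.43 ± 0.054 (SE), which is 1.35-fold lower in overexpression (limma, adjusted p = 0.00272). It passed under each of the 14 alternative settings, with differences between -0.45 and -0.41. Of its 20 nearest tested genes on chromosome 4, 9 were lower and 1 was higher, beside 4.53% lower and 6.38% higher among all tested genes. Their differences ran from -0.80 to 0.39 with a median of -0.26. The part of this region in the fall of UCHL1 was not tested.

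**Figure D2:**
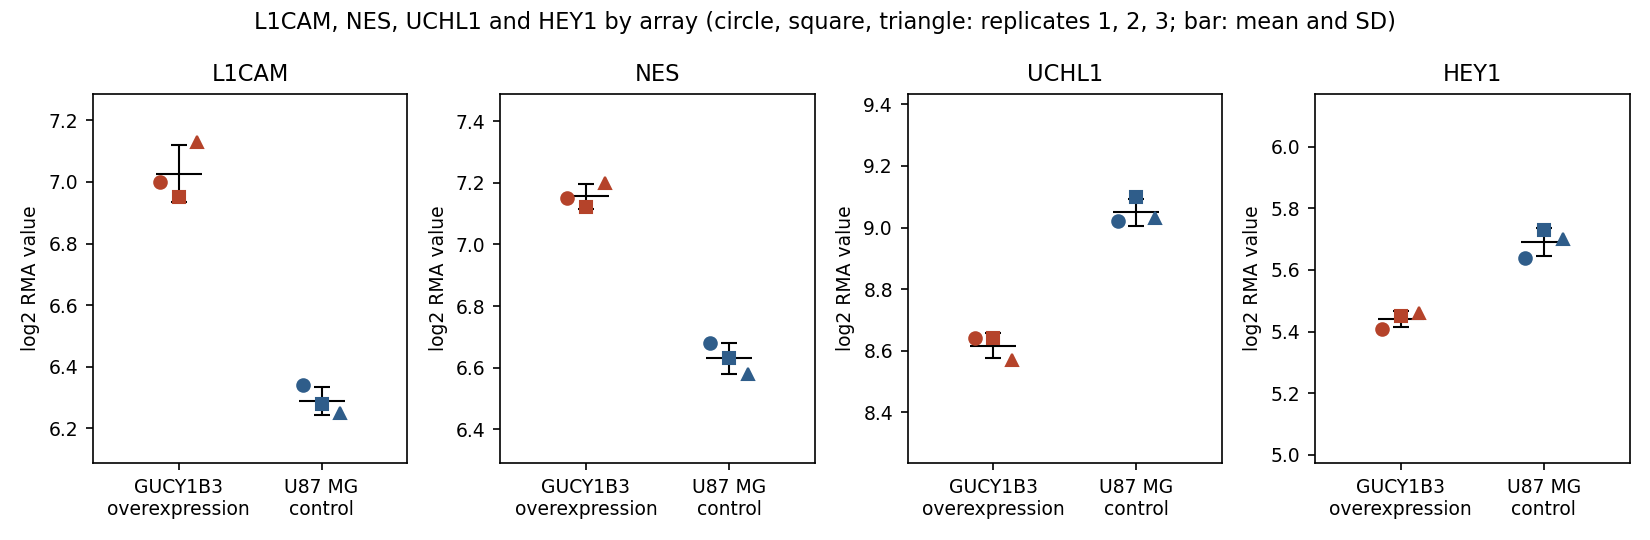
Log2 RMA values of L1CAM, NES, UCHL1 and HEY1 on each of the 3 GUCY1B3 overexpression arrays (red, left) and the 3 U87 MG control arrays (blue, right), with the mean and SD of each group. The groups do not overlap in any of the 4 panels, and the step is 0.74 for L1CAM and -0.25 for HEY1.

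The promoters of L1CAM, NES and UCHL1 are shown because these genes passed under every setting tried. Each is the 250 bases before the annotated start, from RefSeq (GRCh38.p14), and the capitals mark the GC box GGGCGG on either strand, a letter pattern bound by SP factors. The L1CAM stretch is chrX:153875945-153876194 on the minus strand, the NES stretch chr1:156677408-156677657 on the minus strand and the UCHL1 stretch chr4:41256678-41256927 on the plus strand.
L1CAM: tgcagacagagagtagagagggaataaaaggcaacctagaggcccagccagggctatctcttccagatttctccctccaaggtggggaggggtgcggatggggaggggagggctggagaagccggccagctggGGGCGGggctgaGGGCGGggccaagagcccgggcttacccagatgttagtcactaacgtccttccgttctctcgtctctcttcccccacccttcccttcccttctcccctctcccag
NES: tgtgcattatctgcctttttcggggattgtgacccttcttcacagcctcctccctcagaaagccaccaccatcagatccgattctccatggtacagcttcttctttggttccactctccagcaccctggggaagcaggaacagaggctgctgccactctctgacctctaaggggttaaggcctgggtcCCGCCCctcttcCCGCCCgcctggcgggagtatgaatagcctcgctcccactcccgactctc
UCHL1: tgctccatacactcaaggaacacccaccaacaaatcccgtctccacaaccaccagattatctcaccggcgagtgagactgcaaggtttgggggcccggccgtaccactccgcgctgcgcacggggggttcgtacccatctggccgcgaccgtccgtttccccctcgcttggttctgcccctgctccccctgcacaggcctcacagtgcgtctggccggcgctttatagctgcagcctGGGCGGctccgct
The GC box occurred at 2 places in the L1CAM stretch, beginning 117 and 105 bases before the start, at 2 in that of NES, beginning 62 and 50 bases before it, and at 1 in that of UCHL1, beginning 13 bases before it. Other patterns were searched on both strands, and the L1CAM, NES and UCHL1 stretches printed held 0 matches to them. They were TGGGAA (RBPJ, the Notch effector), CACGTG (an E-box bound by HEY repressors) and ACAANG (SOX proteins). RefSeq lists a further start of L1CAM 70 bases upstream, and the 250 bases before that start held 1 match to the RBPJ letters. The patterns do not overlap in the sequences printed. Of 35116 promoters of this length, 42.6% held the GC box, 20.8% the RBPJ letters, 6.34% the E-box and 30.9% the SOX letters. Of 17 tested listed genes with a promoter in the table, taking the first start of each, 13 held the GC box, 5 the RBPJ letters, 0 the E-box and 4 the SOX letters. The 35116 may include several starts of a gene, so the shares are not directly comparable. A match is a description of letters, not a site.

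Among the 3 Notch target repressors, which are bHLH proteins that silence neurogenic genes, 0 were higher and 1 was lower. HEY1 read 5.41, 5.45 and 5.46 on the overexpression arrays, against 5.64, 5.73 and 5.70 on the control arrays. The groups did not overlap, but all 6 values lay within 1 log2 unit of the array median. It averaged 5.44 ± 0.02 in overexpression and 5.69 ± 0.05 in control (SD, n = 3 each), so the groups differed by -0.25 ± 0.052 (SE), which is 1.19-fold lower in overexpression (limma, adjusted p = 0.0203). The call was lost when any overexpression array or control array 2 was left out, with adjusted p of 0.0954, 0.0775 and 0.0742 without overexpression arrays 1, 2 and 3 and 0.0641 without control array 2, and it also lay just over the threshold with the replicate number as a block. HES1, the canonical Notch target, read 5.35, 5.36 and 5.13 on the overexpression arrays, against 5.01, 5.08 and 5.15 on the control arrays. Overexpression array 3 lay below control array 3, and the difference of 0.20 ± 0.075 (SE) did not pass (limma, adjusted p = 0.136). HEY2 differed by -0.06 ± 0.057 (SE), with overlapping arrays (limma, adjusted p = 0.631).

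The HES1 promoter is shown because HES1 is the canonical Notch target and its promoter holds the RBPJ letters at 2 places. The stretch is the 250 bases before the RefSeq start, chr3:194135898-194136147 on the plus strand of GRCh38.p14, and the capitals mark TGGGAA and, further upstream, ACAANG on the opposite strand.
HES1: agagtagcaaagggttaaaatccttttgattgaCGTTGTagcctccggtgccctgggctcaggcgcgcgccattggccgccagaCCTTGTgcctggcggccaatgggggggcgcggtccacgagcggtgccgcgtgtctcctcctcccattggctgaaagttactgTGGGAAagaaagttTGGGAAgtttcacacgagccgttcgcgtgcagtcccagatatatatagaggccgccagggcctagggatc
The RBPJ letters began 84 and 70 bases before the start and the SOX letters 217 and 166 bases before it. Among all tested genes 6.38% were higher and 4.53% lower. Of 24 tested Notch ligands, receptors, proteases and cofactors on a separate list, 0 were higher and 1 was lower, with a median difference of -0.02. The gene that fell was ADAM10, the protease that cleaves Notch receptors at the cell surface, with 8.63 ± 0.06 in overexpression and 8.96 ± 0.03 in control (SD, n = 3 each; limma, adjusted p = 0.00913).

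The SOX factors showed no call. SOX9, the SoxE factor of glial fate and the SOX probe set furthest above the array median, read 9.30, 9.26 and 9.45 on the overexpression arrays, against 9.40, 9.72 and 9.08 on the control arrays. The control arrays spread more widely than the overexpression arrays and lay on both sides of them, and the 95% interval of the difference, -0.39 to 0.26, was the widest of the listed SOX factors tested. Control array 3 lay 0.47 below the mean of the other controls, and without it the difference was -0.22, beside -0.06 with it (limma, adjusted p = 0.132 and 0.844). SOX8, another SoxE factor, read 6.51, 6.60 and 6.44 on the overexpression arrays, against 6.39, 6.24 and 6.11 on the control arrays. All overexpression arrays lay above all control arrays, but the difference of 0.27 ± 0.080 (SE) missed the threshold (limma, adjusted p = 0.0687). Without control array 1 it was 0.34 (limma, adjusted p = 0.0443) and without control array 3 it was 0.20 (limma, adjusted p = 0.0674). SOX10, which marks the oligodendrocyte lineage, read 6.29, 6.12 and 6.25 on the overexpression arrays, against 6.36, 6.18 and 6.04 on the control arrays, and the groups overlapped.

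SOX2, the SoxB1 factor that maintains neural stem cells, read 5.36, 5.22 and 5.32 on the overexpression arrays, against 5.32, 5.26 and 5.39 on the control arrays. Its values lay between 0.25 and 0.42 above the array median, and the 95% interval of the difference was -0.16 to 0.12. SOX2 lies within the transcribed region of SOX2-OT, so signal from that transcript cannot be set aside. SOX4, a SoxC factor of early neurons and tumour cells, differed by -0.07 ± 0.063 (SE; limma, adjusted p = 0.543). SOX3, SOX5, SOX6 and SOX11 lay below the filter. In SOX5, a SoxD factor, the overexpression arrays read 4.49, 4.45 and 4.47, below the control arrays at 4.58, 4.65 and 4.50, and both groups lay under the array median. Of 8 tested SOX genes outside the 40, 0 were called by limma in either direction, beside 10.9% of all tested genes. An unadjusted p under 0.05 was found for 0 of the 8, beside 25.0% of all tested genes.

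**Figure D3:**
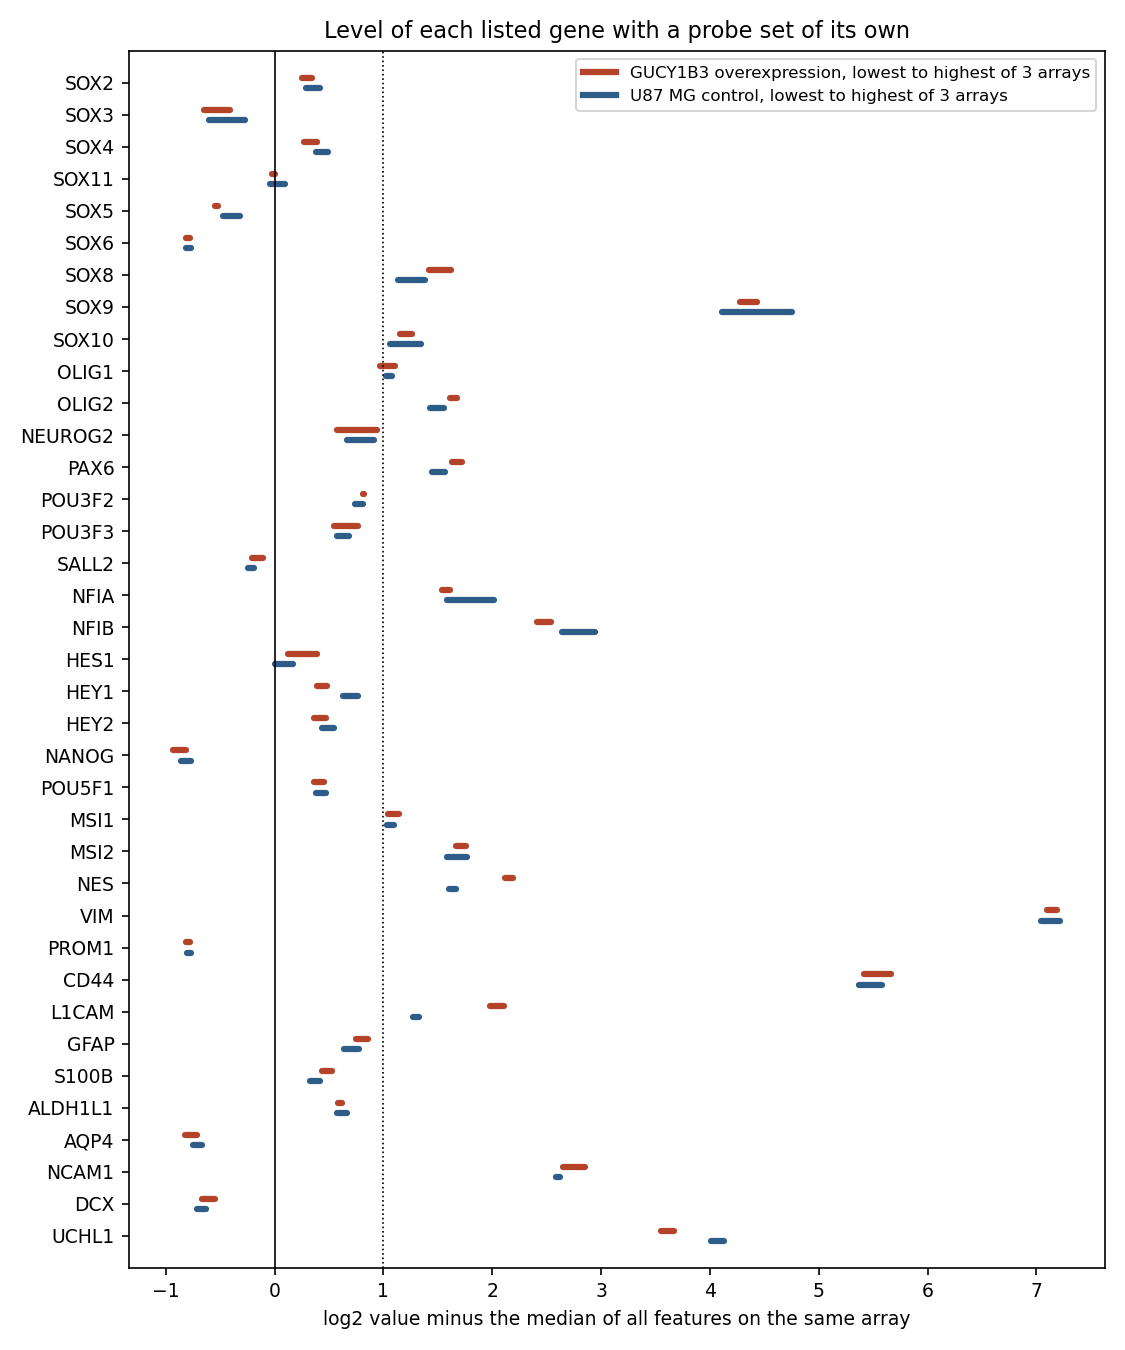
Level of the 37 genes with a probe set of their own, as log2 value minus the median of all features on the same array, from the lowest to the highest of 3 arrays (red, GUCY1B3 overexpression, above; blue, U87 MG control, below). The dotted line marks 1 log2 unit above the median, and VIM, CD44, SOX9 and UCHL1 lie furthest to the right in both groups.

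Among the other transcription factors the nearest to a call were PAX6 and NFIB, with differences of opposite sign that did not pass. PAX6, a paired homeobox factor of radial glia, read 6.66, 6.69 and 6.66 on the overexpression arrays, against 6.46, 6.53 and 6.50 on the control arrays. All overexpression arrays were above all control arrays, with a difference of 0.17 ± 0.050 (SE; limma, adjusted p = 0.0682), and PAX6 passed under 0 of the 14 alternative settings. NFIB, a nuclear factor I protein of glial differentiation, read 7.44, 7.44 and 7.56 on the overexpression arrays, against 7.73, 7.91 and 7.62 on the control arrays. Here all overexpression arrays were below all control arrays, with a difference of -0.27 ± 0.081 (SE; limma, adjusted p = 0.0686). NFIA, its relative that starts gliogenesis, read 6.57, 6.58 and 6.60 on the overexpression arrays, against 6.84, 6.99 and 6.56 on the control arrays. Control array 3 differed from the mean of the other controls by -0.35 in NFIA and by -0.20 in NFIB. Without that array the difference was -0.33 in NFIA (limma, adjusted p = 0.00479) and -0.34 in NFIB (limma, adjusted p = 0.00829), and 22.9% of all tested genes were called.

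OLIG2, a bHLH factor of oligodendrocyte precursors and glioma stem cells, read 6.68, 6.58 and 6.70 on the overexpression arrays, against 6.55, 6.52 and 6.41 on the control arrays. The arrays did not overlap, and the difference was 0.16 ± 0.061 (SE; limma, adjusted p = 0.154). Its 20 nearest tested genes on chromosome 21 had a median difference of 0.16, beside 0.02 over all tested genes. Of those 20, 4 were higher and 0 lower, beside 6.38% and 4.53% of all tested genes. OLIG1, the neighbour of OLIG2 there, differed by 0.02 ± 0.064 (SE), and NEUROG2, a proneural bHLH factor, by -0.04 ± 0.115 (SE). POU3F2 (BRN2) read 5.83, 5.78 and 5.84 on the overexpression arrays, against 5.82, 5.78 and 5.72 on the control arrays, and the neural POU factor POU3F3 differed by 0.08 ± 0.081 (SE). SALL2, a zinc finger factor, lay under the median on all 6 arrays. Of SOX2, OLIG2, POU3F2 and SALL2, 3 were tested and 0 passed (limma). OLIG2 was the 1 of them with an unadjusted p under 0.05 in that fit, beside 25.0% of all tested genes.

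**Figure D4:**
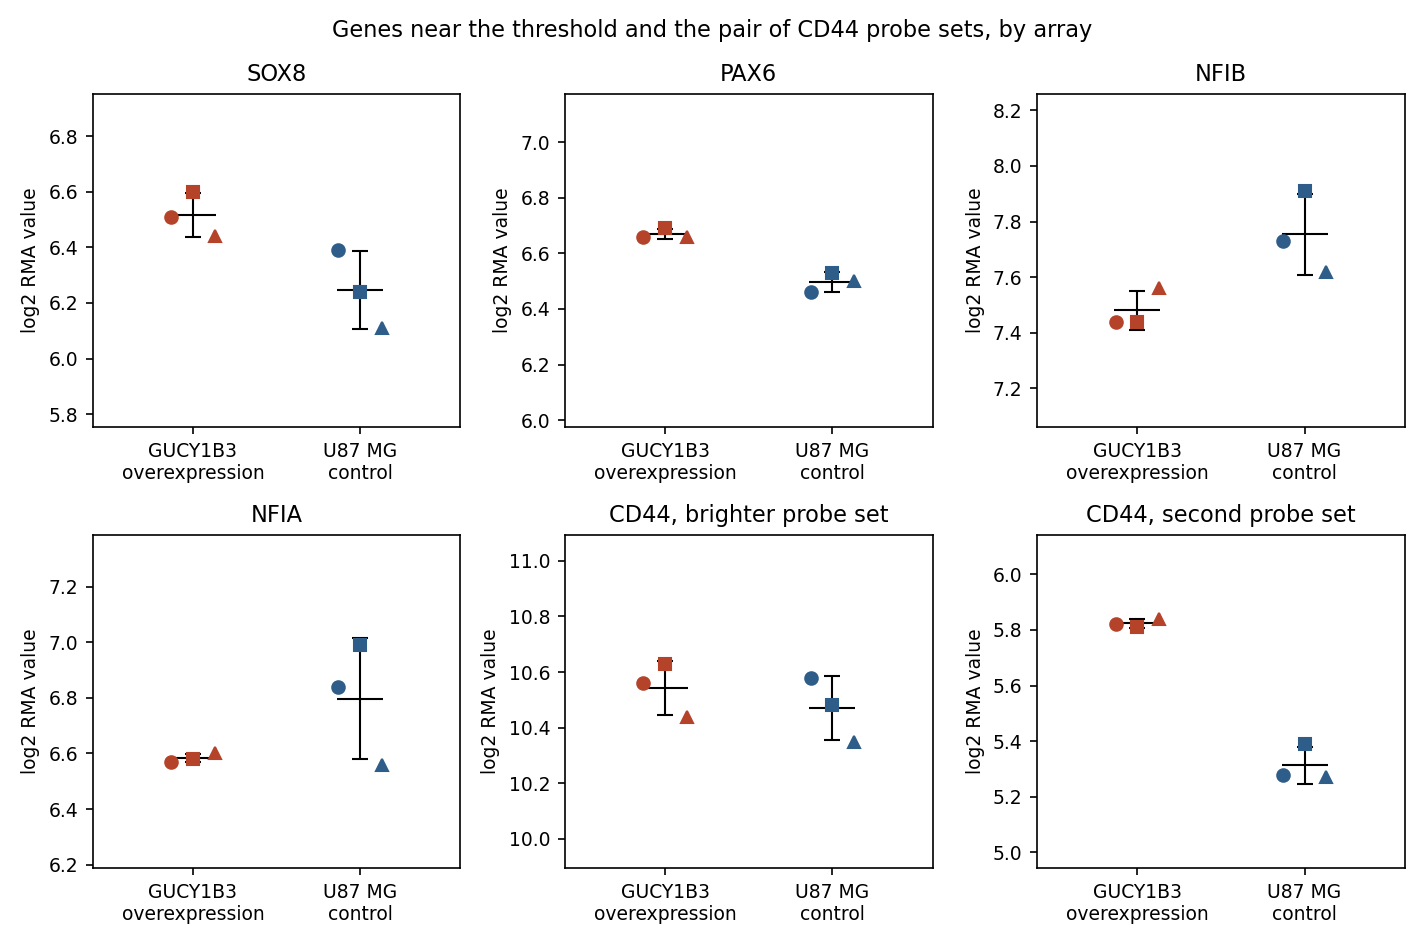
Log2 RMA values of SOX8, PAX6, NFIB, NFIA and the pair of CD44 probe sets on each GUCY1B3 overexpression array (red, left) and U87 MG control array (blue, right), with mean and SD; circles, squares and triangles are replicates 1, 2 and 3. Control array 3 is the lowest control for NFIA and NFIB, and only the second CD44 probe set shows a clear step among the CD44 panels.

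CD44, the hyaluronan receptor, had 2 probe sets that differed in outcome. The brighter read 10.56, 10.63 and 10.44 on the overexpression arrays, against 10.58, 10.48 and 10.35 on the control arrays, and the groups overlapped (difference 0.07 ± 0.078 SE; limma, adjusted p = 0.645). The second, TC11000333.hg.1, read 5.82, 5.81 and 5.84 on the overexpression arrays, against 5.28, 5.39 and 5.27 on the control arrays. It differed by 0.51 ± 0.055 (SE) when every probe set was tested as a feature of its own, a setting chosen after the values were seen (limma, adjusted p = 0.00164), beside 6.03% of all such probe sets higher. What part of the gene it reads is not given in the sources used here. With the mean of both probe sets CD44 passed, with a difference of 0.29 (limma, adjusted p = 0.0165).

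VIM, the filament vimentin of mesenchymal and glial cells, read 12.16, 12.16 and 12.12 on the overexpression arrays, against 12.04, 12.19 and 12.05 on the control arrays. The groups overlapped, and the 95% interval of the difference was -0.08 to 0.19. PROM1, which encodes the stem cell marker CD133, lay between -0.81 and -0.77 relative to the array median on all 6 arrays. The probe set shared by FUT4, whose enzyme makes the stem cell antigen SSEA-1, and PIWIL4 read 4.08, 4.09 and 4.11 in overexpression and 4.09, 4.03 and 4.03 in control. Neither gene can be assigned that signal. Of 10 other tested intermediate filament and lamin genes 0 were called by limma, beside 10.9% of all tested genes. An unadjusted p under 0.05 was found for 2 of them, beside 25.0% of all tested genes.

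Of the pluripotency factors, NANOG read between 4.09 and 4.24 on the 6 arrays, under the median on each. POU5F1 (OCT4) read 5.48, 5.33 and 5.39 on the overexpression arrays, against 5.38, 5.35 and 5.45 on the control arrays. Its 6 further probe sets read between 4.65 and 4.83, under the median on each array, and were not tested. Their names place them on alternate haplotypes of chromosome 6, so they may not be separate readings. NANOG and POU5F1 both have near-identical pseudogenes, so their signals are uncertain. The Musashi proteins bind RNA and repress differentiation genes. MSI1 differed by 0.05 ± 0.062 (SE; limma, adjusted p = 0.732) and MSI2 by 0.05 ± 0.060 (SE; limma, adjusted p = 0.681), and the arrays overlapped in both.

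The astrocyte markers lay close to or under the array median, and 0 of 3 tested were called (limma), with 0 at an unadjusted p under 0.05. Among all tested genes 10.9% were called and 25.0% had an unadjusted p under 0.05. GFAP, the filament of mature astrocytes, read 5.89, 5.73 and 5.77 on the overexpression arrays, against 5.75, 5.60 and 5.75 on the control arrays, which is 0.64 to 0.86 above the array median. The calcium-binding protein S100B differed by 0.12 ± 0.061 (SE; limma, adjusted p = 0.297), where its 12 nearest tested genes on chromosome 21 had a median of 0.15. Of those 12, 4 were higher and 0 lower, beside 6.38% and 4.53% of all tested genes. ALDH1L1, a folate enzyme, differed by 0.01 ± 0.058 (SE), and the water channel AQP4 lay under the median on all 6 arrays. Of 7 tested astrocyte genes outside the 40, 2 were higher and 1 was lower, with a median of 0.01. The shares among all tested genes were 6.38% higher and 4.53% lower. GLUL, glutamine synthetase, was 1.87-fold higher and the glutamate transporter SLC1A3 1.37-fold higher, and GJA1, connexin 43, was 2.07-fold lower (limma, adjusted p = 0.000217, 0.0280 and 0.00128).

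The neuronal markers divided into bright and dim genes. NCAM1, a neural adhesion molecule, read 7.68, 7.62 and 7.87 on the overexpression arrays, against 7.62, 7.56 and 7.59 on the control arrays. Overexpression array 3 was the highest, and the difference of 0.13 ± 0.072 (SE) did not pass (limma, adjusted p = 0.309). The microtubule protein DCX of migrating neurons lay under the median on all 6 arrays, with 4.47, 4.40 and 4.35 in overexpression and 4.38, 4.31 and 4.27 in control. The probe set shared by TUBB3, the neuronal tubulin, and MC1R read 6.44, 6.40 and 6.47 in overexpression and 6.46, 6.29 and 6.36 in control. Of 9 further tested neuronal genes 0 were called by limma and 2 had an unadjusted p under 0.05, with a median of 0.04. These stand beside 10.9% called and 25.0% with an unadjusted p under 0.05 among all tested genes. The fall of UCHL1 thus had no called counterpart among the 9.

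Of the 28 tested genes, 8 had arrays that did not overlap between the groups, 5 higher and 3 lower in overexpression. That is 28.6%, beside 29.2% of all tested genes, of which 17.1% did not overlap and were higher and 12.2% lower. An unadjusted p under 0.05 was found for 9 of the 28, beside 25.0% of all tested genes. The 24 genes that did not pass had differences between -0.27 and 0.27, and their 95% intervals reached at most -0.46 and 0.45. The 9 genes below the filter lay between -0.93 and 0.10 relative to the array median. In the fit without a filter their differences lay between -0.11 and 0.09, with adjusted p of at least 0.321 (limma). At such levels the array background limits the differences that can be measured.

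Related genes outside the 40 were counted in the same way, to be read beside 6.38% higher, 4.53% lower and 25.0% with an unadjusted p under 0.05 among all tested genes. Of 16 tested bHLH, ID and HES genes 0 were higher and 2 were lower, ID3, an inhibitor of bHLH factors, by 1.50-fold and TCF3, their E-protein partner, by 1.38-fold (limma, adjusted p = 0.0188 and 0.0274), and 6 of the 16 had an unadjusted p under 0.05. Of 15 tested close relatives of the listed genes 0 were higher and 3 were lower, with a median of -0.01 and 7 at an unadjusted p under 0.05. They were SALL1, a zinc finger factor, 1.56-fold lower, the adhesion molecule NFASC, of the L1 family, 1.28-fold lower, and the homeobox factor PAX3, 1.19-fold lower (limma, adjusted p = 0.0209, 0.0230 and 0.0250). Of 18 other glioma stem cell factors 2 were higher and 1 was lower, with 7 at an unadjusted p under 0.05. The histone methyltransferase EZH2 was 1.19-fold and the homeobox factor VAX2 1.18-fold higher, and the laminin receptor ITGA6 was 3.55-fold lower (limma, adjusted p = 0.0314, 0.0481 and 0.000184). ITGA6 lay 0.35 to 0.62 above the array median on the overexpression arrays and 2.08 to 2.55 above it on the control arrays. Of 16 mesenchymal glioma genes 1, the YAP paralog WWTR1, was higher and 1, the AP-1 subunit FOSL2, was lower. An unadjusted p under 0.05 was found for 3 of these 16. Of 7 proneural genes 0 were called by limma, with 2 at an unadjusted p under 0.05. Of 6 other pluripotency genes 0 were called by limma, and 0 had an unadjusted p under 0.05. Control array 3 lay below the mean of the other controls by 0.39 in TCF3, by 0.46 in SALL1 and by 0.52 in FOSL2. Without it their differences were -0.60, -0.79 and -0.76, beside -0.47, -0.64 and -0.59 with it, and all 3 passed both ways.

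Of 31 tested genes on 5 marker lists of other cell types 4 were called, which is 12.9%, beside 10.9% of all tested genes. The counts at an unadjusted p under 0.05 are to be read beside 25.0% of all tested genes. Of 7 oligodendrocyte lineage genes, 5 microglial and macrophage genes and 6 endothelial genes 0 were called by limma, with 1, 0 and 1 at an unadjusted p under 0.05. Their mean levels against the array median ranged from 0.92 to 0.96, from 0.43 to 0.51 and from 0.35 to 0.39 on the overexpression arrays, and from 0.88 to 0.94, from 0.43 to 0.48 and from 0.29 to 0.40 on the control arrays. Of 7 fibroblast genes 1 was higher, the smooth muscle actin ACTA2, and 1 was lower, the collagen COL1A2, with 3 at an unadjusted p under 0.05. Of 6 melanocyte and neural crest genes 2 were higher, the factor MITF and the endothelin receptor EDNRB, 1.21-fold and 1.30-fold (limma, adjusted p = 0.0203 and 0.0370), and these were also the 2 with an unadjusted p under 0.05. EDNRB lay 0.45 to 0.76 above the array median on the overexpression arrays and 0.14 to 0.37 above it on the control arrays. The mean level of the melanocyte and neural crest list ranged from 0.62 to 0.64 on the overexpression arrays and from 0.50 to 0.59 on the control arrays. Its part in the rise of L1CAM and NES was not tested.

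**Figure D5:**
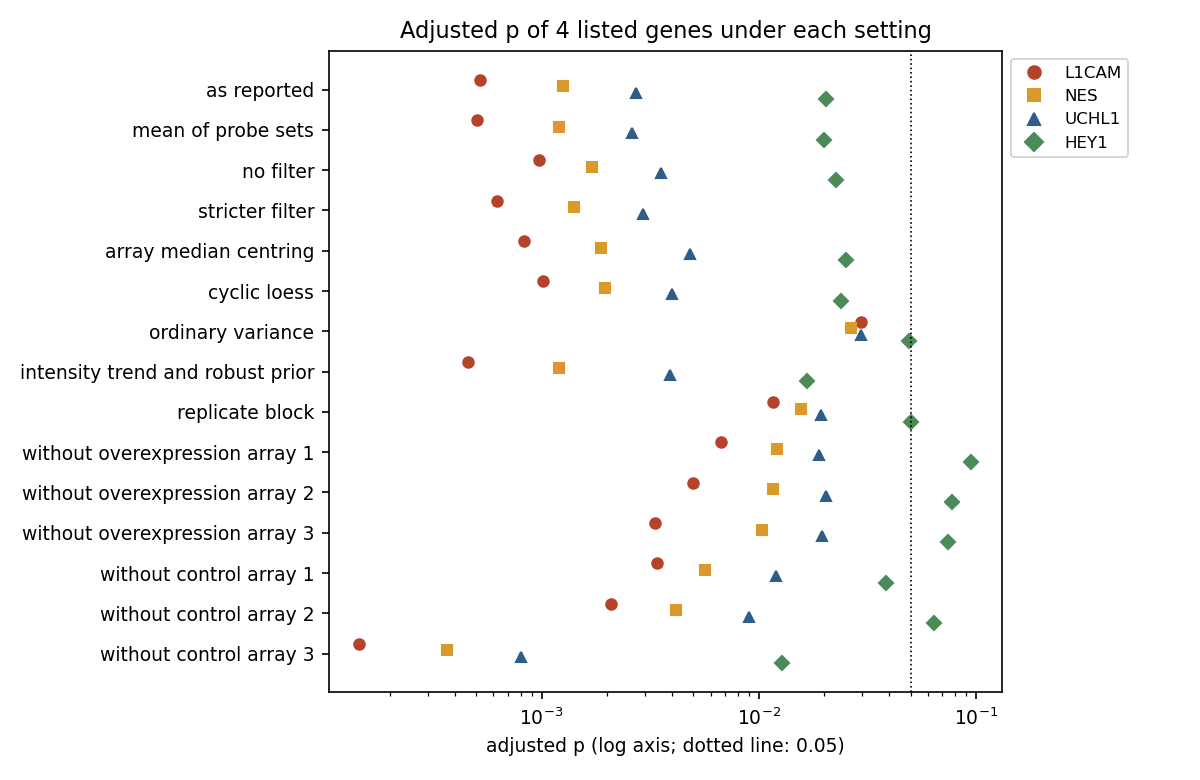
Adjusted p (log axis) of L1CAM, NES, UCHL1 and HEY1 as reported and under each alternative setting, with the dotted line at 0.05. L1CAM, NES and UCHL1 stay to the left of the line throughout, and HEY1 lies to the right when overexpression array 1, 2 or 3 or control array 2 is left out and just past it with the replicate number as a block.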

How the data were processed

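The authors deposited 1 table of log2 RMA values for 70523 features, made in Affymetrix Expression Console per the submitters' processing notes and the labels. RMA corrects background, quantile-normalizes arrays and summarises probe sets. Its version, library files and the array's genome build are not given in the sources used here. Scanner files and detection calls were not used here. The array medians lay between 4.97 and 5.03, and with 3 arrays a group the array number limits precision.

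Symbols came from the platform annotation (23781 probe sets with 1 symbol, 1543 with several, 45199 features with none) and were updated through RefSeq GRCh38.p14. The probe set with the highest mean was kept for each of 22411 genes. A gene was tested when it exceeded the array median on at least 3 of 6 arrays (15823 genes), by limma 3.58.1 (lmFit, eBayes, no covariate, 4 residual and 4.38 prior degrees of freedom) in R 4.3.3, on log2 values, overexpression minus control. Errors beside means are SD. The procedure was tested on simulated data. Summaries and plots were made in Python 3.11.15 (pandas 2.3.3, matplotlib 3.10.9).

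The genes and lists were chosen with earlier results of these data known. The text names all 40 genes, GUCY1B1 and, from each further list, up to 3 called genes with the greatest difference. Gene neighbours are the 10 tested genes on each side in RefSeq order, or fewer where the chromosome ends, as for S100B. Alternatives were another probe set rule, 2 filters, 2 normalizations, 2 variance estimates, a replicate block and leaving out each array.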

Additional observations from a re-analysis of the deposited data

Results flagged for a closer look

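The second CD44 probe set, TC11000333.hg.1, was not used in the comparison of genes, where the brighter probe set stood for CD44, and it carried signal above the control arrays. It averaged 5.82 ± 0.02 on the overexpression arrays and 5.31 ± 0.07 on the control arrays (SD, n = 3 each), and the log2 difference was 0.51. The brighter probe set differed by 0.07. The difference between the 2 probe sets was not tested.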

How the results depend on the processing

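L1CAM, NES and UCHL1 kept their direction and stayed past the threshold under all 14 planned settings, and HEY1 kept its direction under all 13 that tested it and its call under 8. With the replicate number as a block, 589 genes were higher and 439 lower, and of the listed genes 2 were higher and 1 lower. HEY1 then lay just over the threshold. In the labels the samples share only a replicate number. The deviations of same-numbered arrays from their group means correlated at 0.282, -0.097 and -0.241, and not every array correlated best with its own number. With so few arrays a group, these correlations cannot settle whether arrays with the same number were prepared together. With the ordinary variance 246 genes were higher and 170 lower, and the 4 listed genes passed. With the stricter filter, which left HEY1 untested, 1 listed gene was lower. Leaving out 1 array at a time gave 306 to 2053 genes higher and 215 to 1577 lower, and 2 to 3 listed genes higher and 1 to 4 lower. Without control array 3, the counts were the highest in each case but 1, the 3 listed genes higher, which came without control array 1 and included SOX8. Array median centring gave 719 higher and 688 lower against 1010 and 717, which moves the share of higher calls from 58.5% to 51.1%.

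Some listed genes near 0 changed sign without passing the threshold, and the cause was not tested. Leaving out 1 array gave -0.05 to 0.020 for SOX2, -0.22 to 0.10 for SOX9, -0.05 to 0.11 for SOX10, -0.019 to 0.07 for OLIG1, -0.13 to 0.08 for NEUROG2, -0.033 to 0.043 for POU5F1, -0.021 to 0.046 for ALDH1L1, -0.09 to 0.09 for SOX3, -0.037 to 0.05 for SOX11, -0.004 to 0.032 for SOX6, -0.046 to 0.012 for NANOG and -0.004 to 0.027 for PROM1. With array median centring OLIG1 was -0.005, POU5F1 -0.016, ALDH1L1 -0.015, SOX6 -0.009 and PROM1 -0.011. With cyclic loess SOX10 was -0.008, OLIG1 -0.015, POU5F1 -0.020, ALDH1L1 -0.022, SOX6 -0.001 and PROM1 -0.004.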
